A study of Mus musculus with 8 samples.

Results

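The genes examined here are 35 components of the integrated stress response (ISR), chosen by name: the 4 kinases that phosphorylate eIF2α, eIF2α with its phosphatase subunits, ATF4 and CHOP with related transcription factors, and the effectors, amino acid enzymes and amino acid transporters known as their targets. The set, and the lists of related genes used below, were chosen with earlier results of these data known. Of the 35, 34 were among the 19642 genes of the count table and 29 were among the 14214 that passed the filter on low counts and were tested. Chac1, Stc2, Aldh18a1, Pycr1 and Slc7a11 fell below that filter, and Phgdh was not analysed here. The study asked what loss of the Nogo-B receptor (NgBR, encoded by Nus1), a subunit of the cis-prenyltransferase that makes the lipid carrier for protein N-glycosylation, does to the liver. Livers came from male C57BL6 mice fed chow diet, 4 labelled WT and 4 labelled as liver-specific NgBR knockouts (N-LKO), with 1 RNA library per mouse. N-LKO mice carried loxP-flanked NgBR alleles and Cre driven by the albumin promoter, which acts in hepatocytes and in cells derived from their embryonic precursors. The sources give the controls only as WT, so it is not known whether they carried loxP alleles or Cre. Sample titles state 8 weeks on chow and the treatment entry states 16 weeks. The age at collection was not given in the sources used here, and the mice are described as age-matched.

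In the ISR, PERK, GCN2, PKR and HRI respond to unfolded proteins in the endoplasmic reticulum, amino acid shortage, double-stranded RNA and haem shortage, respectively, and all phosphorylate the same translation factor, eIF2α. Phosphorylated eIF2α lowers protein synthesis overall but favours translation of ATF4, which with partners such as CHOP and C/EBP proteins turns on genes for amino acid synthesis, uptake and tRNA charging. In liver the pathway is known for its reaction to dietary protein and amino acid supply and to defects in protein folding and glycosylation. Transcript levels do not directly measure kinase activity, eIF2α phosphorylation or ATF4 protein, and none of these was measured here.

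ATF4 binds with C/EBP partners at a composite element whose core reads TGATGNAA. Promoters of 300 bases from RefSeq (GRCm38.p6, from 250 bases before to 50 after the start site) were searched for this core on both strands. They were found for 31 of the 35 genes, and 8 of the 31 (25.8%) held the core: Asns, Atf3, Chac1, Nupr1, Pycr1, Slc7a11, Trib3 and Vldlr. Counted by promoter, 8 of the 36 promoters of these genes held it (22.2%). Among all 32851 promoters the share was 3.97%, and among the 12661 promoters of genes tested it was 2.32%. Since many of these genes are listed because they are ATF4 targets, the higher share describes the list and is no result of the experiment. The windows below are those of Asns, Atf3 and Vldlr, tested genes described by mouse further on, and of the effectors Chac1 and Trib3, given 5′ to 3′ on the strand that carries the core, with the core in capitals. Fgf21, an ATF4 target outside the 35 genes, is included for the comparison given further on.
Asns: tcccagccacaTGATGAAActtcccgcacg
Atf3: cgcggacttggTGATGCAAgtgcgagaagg
Chac1: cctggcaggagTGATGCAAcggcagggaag
Trib3: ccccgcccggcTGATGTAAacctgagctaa
Vldlr: gctaggagcgcTGATGCAActattgctgct
Fgf21: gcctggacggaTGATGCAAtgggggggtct
The Asns window is chr6:7693214-7693243 on the minus strand and lies in an annotated exon of Asns (GENCODE M21). The Atf3 window is chr1:191183425-191183454 on the plus strand, in an annotated intron of Atf3 and upstream of the RefSeq start site used for the promoter. The Chac1 window, chr2:119351038-119351067 on the minus strand, and the Fgf21 window, chr7:45615611-45615640 on the plus strand, lie outside the annotated genes. The Trib3 window, chr2:152344028-152344057 on the plus strand, overlaps the first 5 bases of the gene, and the Vldlr window, chr19:27216809-27216838 on the minus strand, is exonic. The CRE palindrome TGACGTCA, read by ATF and CREB family proteins, was found in 1 of the 31 genes, Ppp1r15a. By promoter that was 1 of 36 (2.78%), against 1.79% of all promoters and 2.86% of those of genes tested. Ppp1r15a held no ATF4 core, so matches of the 2 motifs did not overlap. A match describes the sequence only, and binding was not measured.

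The labels were checked on Nus1. Its level was 88.2 ± 4.14 CPM (counts scaled to a library of fixed size) in WT and 36.7 ± 2.57 CPM in N-LKO livers (mean ± SD, n = 4 each), a log2 fold change of -1.26 (adjusted p = 3.06e-05, edgeR quasi-likelihood test, Benjamini-Hochberg). Library totals were 14688404 to 18585412 counts. Hepatocyte markers were high in all 8 livers (summed 75066 to 100170 CPM in WT and 75816 to 93162 CPM in N-LKO), while the summed cholangiocyte markers (6 of 7 listed genes measured) were 23.3 to 45.0 CPM in WT and 52.1 to 132.2 CPM in N-LKO and the 6 fibroblast and matrix markers were 144.3 to 200 and 217 to 307 CPM, without overlap in either case (exact two-sided permutation p = 0.0286 for each, the smallest value that 4 against 4 mice can give). None of these markers was at 0 in any mouse. Alb made up most of the hepatocyte sum (mean 58820 CPM in WT and 56184 CPM in N-LKO). The hepatocyte marker Apoa2 was lower in N-LKO without overlap, by a narrow gap (1834 to 2240 CPM in WT and 1511 to 1832 CPM in N-LKO). Its adjusted p was 0.162 in edgeR and 0.0178 in DESeq2. Spp1 (mean 23.9 CPM in WT and 68.1 CPM in N-LKO) and Sox9 (6.74 and 13.5 CPM) made up most of the cholangiocyte sum, Krt19 and Epcam did not overlap between genotypes and were higher in N-LKO, and the low markers Krt7 (0.362 and 0.357 CPM) and Cldn7 (0.277 and 0.394 CPM) overlapped. Dcn made up most of the matrix sum (143 and 193 CPM) and overlapped by itself. Col3a1 (10.6 and 19.0 CPM) and Thy1 (0.597 and 0.748 CPM) also overlapped, whereas Col1a1, Col1a2 and Lum did not. Among the matrix markers edgeR called Col1a1 (adjusted p = 0.0444) and Lum (0.0026), where it called 1.04% of all genes. Of all genes tested, 7.52% did not overlap between genotypes in either direction. The summed markers of stellate cells, macrophages, sinusoidal endothelium, lymphocytes and erythroid cells overlapped. Reln and Rgs5 made up most of the stellate sum and overlapped, as did Lrat and Des. The stellate marker Pdgfrb did not overlap and was higher in N-LKO (mean 4.24 CPM in WT and 8.71 CPM in N-LKO). Its log2 fold change was 1.04 (adjusted p = 0.0688, edgeR), so the overlap of a sum does not hold for each of its markers. One library stood apart among the WT livers, WT 1, in which Saa1, an acute-phase protein gene, was at 82.2 CPM against 8.57 to 15.5 CPM in the other WT mice, and Fgb, fibrinogen beta chain, at 7489 against 3026 to 3143 CPM. High values of these genes were not confined to it, since Saa1 was at 85.3, 44.2, 14.3 and 24.4 CPM in N-LKO 1 to 4 and Fgb reached 5052 CPM in N-LKO 4. In bulk liver RNA, a lower value from fewer cells of a type and one from less RNA per cell cannot be told apart. Mice were group-housed, but the sources do not say which of these 8 shared a cage or litter, and p-values measure the spread between these 8 livers.

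None of the 29 tested genes passed an adjusted p of 0.05 in edgeR, against 148 of all 14214 genes tested (1.04%). Limma-voom also called 0 of the 29 (0.886% of all genes), and DESeq2 called 2 of 32 genes with an adjusted p, Eif2ak2 and Atf3, where it called 2.28% of all genes. At an unadjusted p under 0.05, 5 of 29 genes stood out, against 12.8% of all genes: Atf3 and Slc3a2 were higher in N-LKO livers and Eif2ak2, Atf5 and Vldlr were lower. In 3 of 29 the mice of the 2 genotypes did not overlap (Eif2ak2, Atf5 and Vldlr, all lower in N-LKO), against 7.52% of all genes in either direction. The log2 fold change was above 0 for 15 genes and below 0 for 14, with a median of 0.045 and a median over all genes of -0.0033. How far the data limit a change was read from the 95% interval of each fold change. That interval lay within 2-fold either way for 21 of the 29 genes and for 85.3% of all genes, and within 1.5-fold for 14 of the 29 and for 62.1% of all genes.

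**Figure D1:**
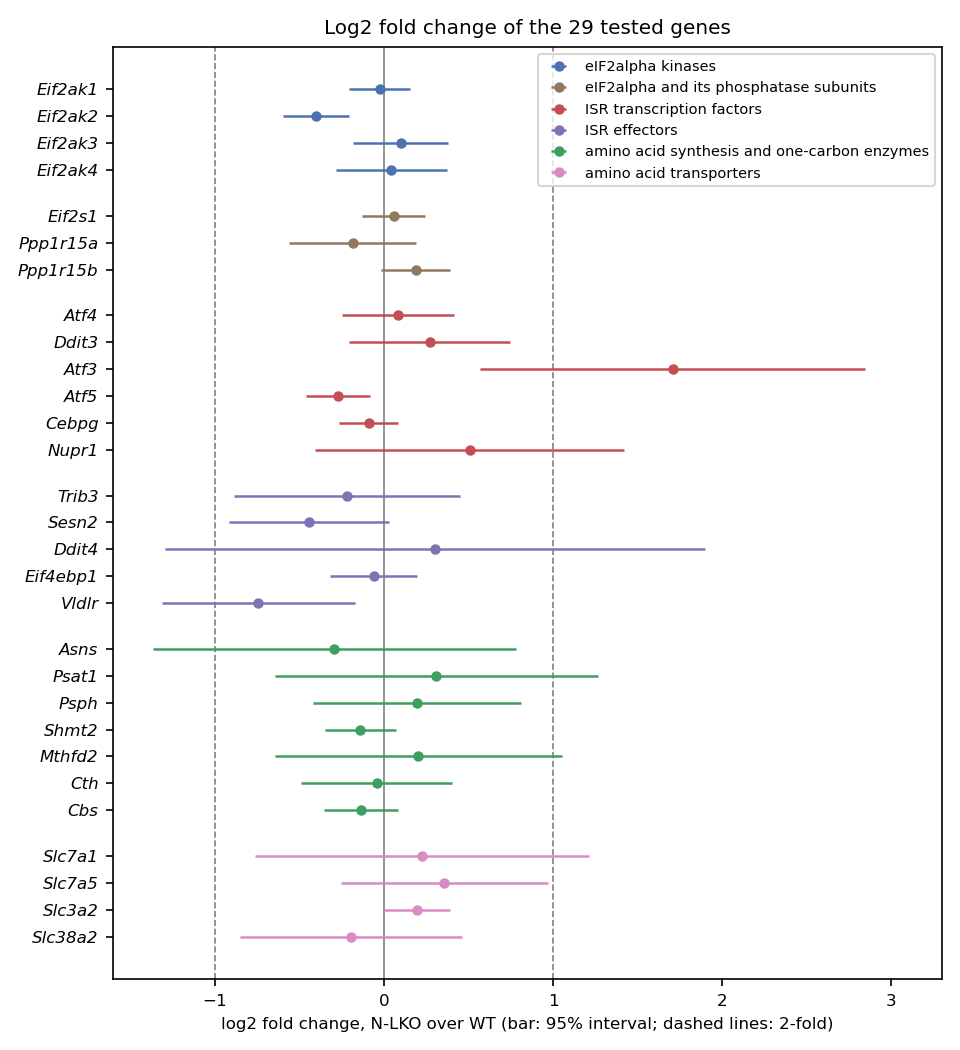
Log2 fold change (N-LKO over WT, x axis) of the 29 tested genes, coloured by role, with bars for the 95% interval from the edgeR fit and dashed lines at 2-fold. Most points lie near 0, Atf3 stands at 1.71 with a wide interval, and Eif2ak2 (-0.40), Atf5 (-0.27) and Vldlr (-0.74) have intervals below 0.

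The levels set the frame for these changes. Exon length was that of all annotated exons of a gene merged (GENCODE M21), whichever transcripts the liver makes. The order of levels per kilobase therefore depends on the annotation. Per kilobase of exon, Atf5 was the most abundant of the 34 genes in WT livers (228 CPM per kb), followed by Cth (159), Cbs (33.7), Shmt2 (27.1) and Atf4 (25.7). Atf5 and Cth were not separated by their ranges over WT mice, but every WT value of Cth lay above every WT value of Cbs. The range over WT mice of a gene lay apart from that of the next gene in only a few places of the order: below Cth, Cbs, Slc38a2, Eif2ak1 and Eif2ak4. Cth and Cbs are the enzymes of transsulfuration, which makes cysteine from homocysteine and serine. At the other end, from Psph downward 13 genes were each at or below 0.374 CPM per kb in WT, including the serine synthesis enzyme Psat1 (0.131), the proline enzymes Aldh18a1 (0.111) and Pycr1 (0.0404), and the cystine transporter Slc7a11 (0.0060). In N-LKO livers the first 3 places were the same, and Atf3 stood at place 21 in N-LKO against 26 in WT.

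Among the kinases, Eif2ak2 was lower in N-LKO livers and the other 3 showed differences smaller than their spread. Eif2ak2 encodes PKR, the double-stranded RNA sensor. It was at 27.3, 31.8, 31.6 and 29.6 CPM in WT 1 to 4 and at 22.3, 25.7, 22.4 and 20.8 CPM in N-LKO 1 to 4. Every N-LKO mouse lay below every WT mouse, with N-LKO 2 nearest to the WT range. N-LKO over WT gave a log2 fold change of -0.40 (SE 0.0887, 95% interval -0.60 to -0.20), with an adjusted p of 0.0688 in edgeR and 0.0739 in limma-voom, both short of the threshold, and 0.0149 in DESeq2. Over the 8 fits that left out 1 mouse each, the log2 fold change ranged from -0.46 to -0.36. The edgeR adjusted p of these fits ranged from 0.0384 to 0.186. Only 1 of the 8 passed the threshold, the fit without N-LKO 2 (log2 fold change -0.46, adjusted p = 0.0384, edgeR). Exons of other genes on the opposite strand cover 4.32% of its exonic bases, and the sources do not say whether counting used strand. Whether the shift in cholangiocyte and matrix markers has a part in this difference, or in those of Atf3, Atf5, Vldlr and Slc3a2 given below, was not tested.

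Eif2ak3 encodes PERK, the kinase of the endoplasmic reticulum membrane. Its values were 11.5, 9.63, 10.4 and 11.5 CPM in WT and 10.8, 10.5, 10.4 and 14.5 CPM in N-LKO mice. Only N-LKO 4 lay above the WT range, and the other N-LKO mice lay inside it. Its log2 fold change was 0.10 (95% interval -0.18 to 0.38) and -0.03 without N-LKO 4. Eif2ak4, which encodes the amino acid sensor GCN2, was at 6.36, 4.69, 6.09 and 6.57 CPM in WT and 6.63, 4.95, 6.10 and 6.79 CPM in N-LKO mice. The groups overlapped almost wholly, with 1 low mouse in each, and the log2 fold change was 0.05 (95% interval -0.29 to 0.38). Eif2ak1, the haem-regulated kinase HRI, was at 60.5, 55.0, 56.1 and 51.7 CPM in WT and 60.6, 53.7, 55.3 and 49.8 CPM in N-LKO mice, also with nearly coincident ranges. Its log2 fold change was -0.03 (95% interval -0.20 to 0.15), and 11.6% of its exonic bases are shared with Aimp2 and Ankrd61 on the other strand. Per kilobase of exon the order of kinase levels in WT was Eif2ak1 (9.84 CPM per kb), Eif2ak2 (5.88), Eif2ak3 (1.79) and Eif2ak4 (0.795), with no overlap between the WT ranges of any of these neighbours.

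Eif2s1, which encodes eIF2α itself, was at 43.9, 41.6, 36.1 and 36.5 CPM in WT and 40.7, 40.9, 39.1 and 44.1 CPM in N-LKO mice. The N-LKO values fell within or just beside the WT range, and the log2 fold change was 0.06 (95% interval -0.13 to 0.25). The phosphatase subunits that reverse its phosphorylation pointed in different directions and neither passed the test. Ppp1r15b encodes the constitutive subunit CReP, and its values of 127, 118, 130 and 106 CPM in WT and 149, 139, 141 and 120 CPM in N-LKO mice overlapped through WT 1, WT 3 and N-LKO 4. Its log2 fold change was 0.19 (95% interval -0.01 to 0.39, adjusted p = 0.425, edgeR), and 11.4% of its exonic bases are shared with an unclassified transcript on the other strand. Ppp1r15a encodes GADD34, the stress-induced subunit, and ranged from 9.05 to 15.8 CPM in WT and from 9.30 to 11.5 CPM in N-LKO mice. Its log2 fold change of -0.19 rested on WT 1, without which it was 0.0047.

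**Figure D2:**
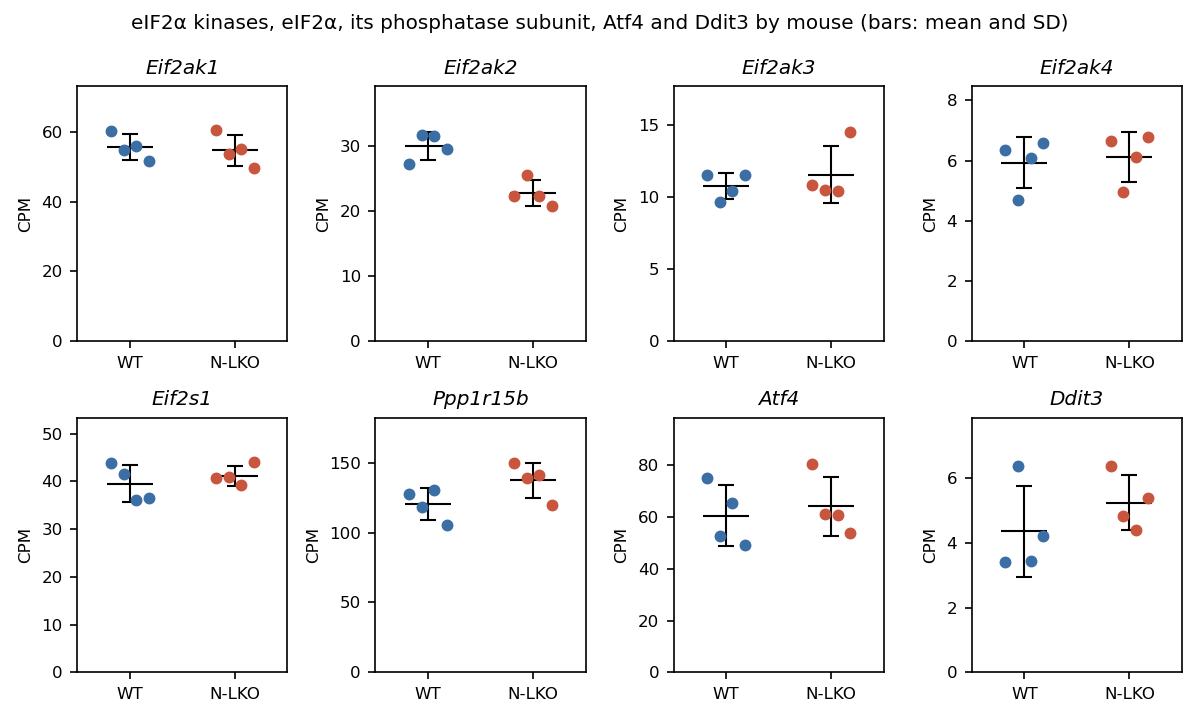
CPM by mouse (points) with mean and SD (bars, n = 4 per genotype) for the 4 eIF2α kinases, Eif2s1, Ppp1r15b, Atf4 and Ddit3, y axes from 0. The WT and N-LKO points separate only for Eif2ak2 (27.3 to 31.8 against 20.8 to 25.7 CPM).

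Atf4, the central transcription factor of the pathway, was at 75.0, 52.8, 65.4 and 49.2 CPM in WT and 80.5, 61.4, 60.9 and 54.0 CPM in N-LKO mice. WT 1 and N-LKO 1 were the highest of their genotype and WT 4 and N-LKO 4 the lowest, and the ranges overlapped over most of their length. Between genotypes the log2 fold change was 0.08 (SE 0.151, 95% interval -0.25 to 0.42, adjusted p = 0.873, edgeR), and it was -0.04 without N-LKO 1 and -0.0042 without WT 4. Ddit3, which encodes the pro-apoptotic factor CHOP, was at 3.42, 6.38, 3.42 and 4.19 CPM in WT and 6.35, 4.82, 4.38 and 5.36 CPM in N-LKO mice. All N-LKO mice lay above WT 1, WT 3 and WT 4 but below WT 2. The log2 fold change was 0.27 (95% interval -0.21 to 0.75, adjusted p = 0.655, edgeR) and it was 0.51 without WT 2.

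Atf3, a stress-induced repressor and partner of other ATF factors, had the largest fold change among the 29 genes and also one of the widest intervals. Its counts were 10, 5, 17 and 6 in WT and 18, 51, 32 and 13 in N-LKO mice. It passed the filter on low counts only through the N-LKO mice. Its place among the tested genes, and so its rank and edgeR p-values, therefore depended on the genotype in which it was high. It was at 0.534, 0.313, 1.08 and 0.331 CPM in WT and at 1.02, 3.37, 2.12 and 0.883 CPM in N-LKO mice. N-LKO 2 and N-LKO 3 lay above all WT mice, whereas N-LKO 1 and N-LKO 4 lay just below WT 3. Atf3 had a log2 fold change of 1.71 (SE 0.516, 95% interval 0.57 to 2.85). The unadjusted edgeR p was 0.00716 and the adjusted p 0.179, DESeq2 gave an adjusted p of 0.0484, and the exact two-sided permutation test gave p = 0.0857 with 4 mice a group. Leaving out 1 mouse at a time moved the log2 fold change between 1.25 (without N-LKO 2) and 2.19 (without WT 3).

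Atf5, an ATF4-like factor regulated by eIF2α phosphorylation and abundant in hepatocytes, was lower in N-LKO livers by a small and even step. Its values were 449, 497, 443 and 428 CPM in WT and 384, 365, 412 and 343 CPM in N-LKO mice. The groups did not overlap, and the highest N-LKO mouse was close to the lowest WT mouse. For Atf5 the log2 fold change was -0.27 (SE 0.0851, 95% interval -0.46 to -0.08, unadjusted p = 0.00873, adjusted p = 0.194, edgeR). It stayed between -0.32 and -0.23 when single mice were left out, with none of these fits past the threshold. Of its exonic bases, 4.11% are shared with Nup62 and Il4i1 on the other strand. Cebpg, the C/EBP partner of ATF4, ranged from 53.5 to 62.8 CPM in WT and from 50.9 to 60.5 CPM in N-LKO mice, a log2 fold change of -0.09 (95% interval -0.26 to 0.09). Nupr1, a small stress-induced chromatin protein, was under 1 CPM in every mouse, with a log2 fold change of 0.51 and an interval from -0.41 to 1.42. The 6 transcription factors had a median log2 fold change of 0.18. It was -0.0036 in a refit of genes with at least 10 counts per mouse, a filter that Atf3 and Nupr1 did not pass.

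Among the effectors, the largest difference in a tested gene was in Vldlr, the VLDL receptor, which ATF4 is known to induce in hepatocytes. Its values were 2.94, 5.44, 2.98 and 3.20 CPM in WT and 2.49, 1.45, 2.12 and 2.58 CPM in N-LKO mice. The groups did not overlap, and WT 2 was far above the other WT mice. Vldlr had a log2 fold change of -0.74 (SE 0.258, 95% interval -1.31 to -0.17, unadjusted p = 0.0153, adjusted p = 0.244, edgeR) and -0.49 without WT 2. Sesn2, an inhibitor of mTORC1 signalling, ranged from 5.01 to 10.2 CPM in WT and from 4.78 to 7.20 CPM in N-LKO mice. Its log2 fold change was -0.44 (95% interval -0.92 to 0.03) and -0.28 without WT 1. Trib3, the pseudokinase that restrains ATF4 and AKT, spread from 1.78 to 6.38 CPM among WT mice and from 3.52 to 4.29 CPM among N-LKO mice, so all N-LKO values lay inside the WT range. Its log2 fold change was -0.22, with an interval from -0.89 to 0.45. Eif4ebp1, the inhibitor of cap-dependent translation, differed little between genotypes, at 10.3 to 13.4 CPM in WT and 9.71 to 12.3 CPM in N-LKO mice, with a log2 fold change of -0.06 (95% interval -0.32 to 0.20).

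Ddit4, which encodes the mTORC1 inhibitor REDD1, varied more between mice of one genotype than nearly any other gene. It was at 10.7, 31.7, 1.65 and 6.95 CPM in WT and at 19.3, 8.58, 4.05 and 30.8 CPM in N-LKO mice. Mice at the top and at the bottom occurred in both genotypes, and the WT maximum was 19.2 times the WT minimum. Its within-group SD of log2 CPM was at percentile 99.9 among genes whose mean reached 5 CPM. The log2 fold change of 0.30 had an interval from -1.29 to 1.90, and it was 1.26 without WT 2 and -0.24 without N-LKO 4.

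The effectors below the filter are given as counts, since their fold changes depend on few reads. Stc2, which encodes the secreted glycoprotein stanniocalcin 2, had 1, 1, 2 and 2 counts in WT and 4, 9, 6 and 9 counts in N-LKO mice. All N-LKO mice had more counts than any WT mouse, in libraries of similar size. The sums of 6 and 28 counts gave a ratio of 5.12 after scaling for library size (N-LKO over WT, 95% interval 2.08 to 15.1, counting error only). With no filter on low counts, edgeR gave a log2 fold change of 2.26 with an adjusted p of 0.114, and DESeq2 gave an adjusted p of 0.129. Chac1, which encodes a glutathione-degrading enzyme of the CHOP branch, had 32, 6, 3 and 3 counts in WT and 6, 3, 4 and 10 counts in N-LKO mice. The ratio of 0.573 (95% interval 0.330 to 0.970, counting error only) came from WT 1, and without that mouse it was 1.53 (0.730 to 3.37).

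**Figure D3:**
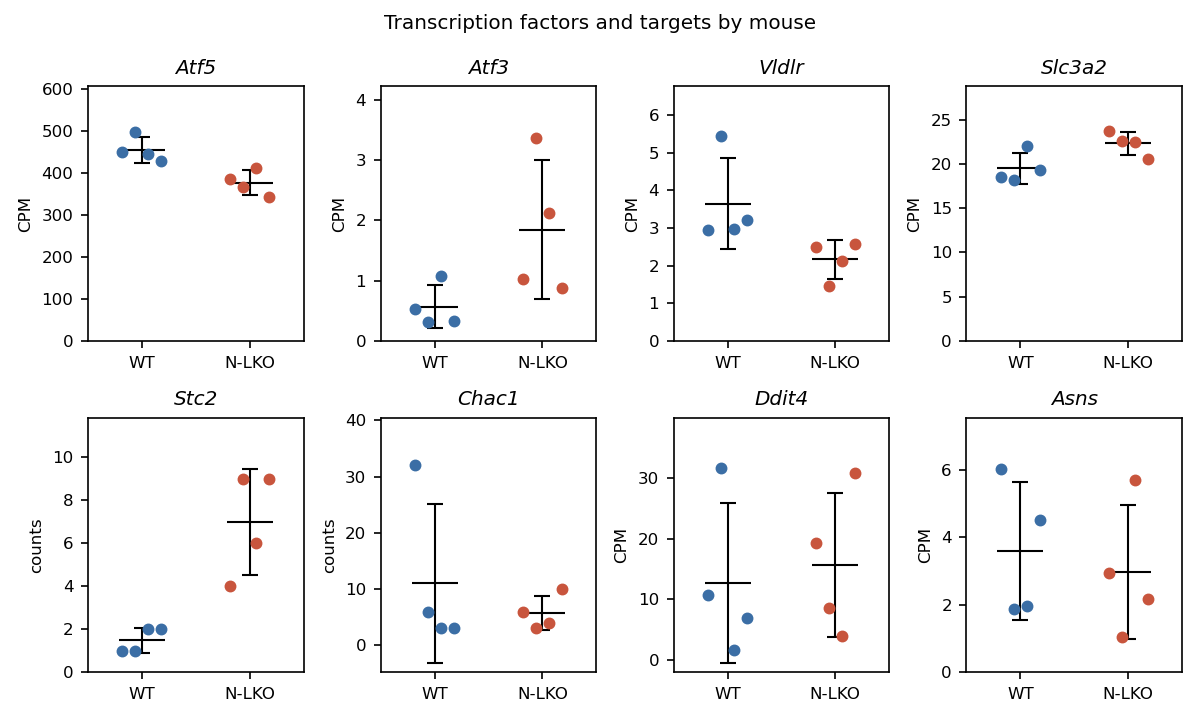
Values by mouse (points) with mean and SD (bars, n = 4 per genotype) for Atf5, Atf3, Vldlr, Slc3a2, Ddit4 and Asns in CPM and for Stc2 and Chac1 in counts. Atf5, Vldlr and Stc2 separate by genotype, Chac1 is set by 1 WT mouse with 32 counts, and Ddit4 spreads from 1.65 to 31.7 CPM in WT alone.

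Enzymes of amino acid synthesis and one-carbon metabolism showed no difference past any threshold, and their median log2 fold change over the 7 tested was -0.04. Asns, asparagine synthetase and a standard readout of ATF4, was at 6.04, 1.88, 1.97 and 4.53 CPM in WT and at 2.95, 1.06, 5.71 and 2.17 CPM in N-LKO mice. Each genotype held high and low mice, and the log2 fold change of -0.29 (95% interval -1.36 to 0.78) was 0.08 without WT 1 and -0.80 without N-LKO 3. The transsulfuration enzymes Cth and Cbs were among the most abundant genes of the set. Cth ranged from 302 to 621 CPM in WT and from 316 to 505 CPM in N-LKO mice (log2 fold change -0.04, 95% interval -0.49 to 0.40), and Cbs from 232 to 265 and from 206 to 277 CPM (log2 fold change -0.13, 95% interval -0.35 to 0.09). Shmt2, the mitochondrial serine hydroxymethyltransferase, ranged from 76.0 to 90.4 CPM in WT and from 64.4 to 86.0 CPM in N-LKO mice, a log2 fold change of -0.14 (95% interval -0.35 to 0.07). For these 3 abundant enzymes the interval lay within 1.5-fold either way.

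The serine and mitochondrial folate enzymes Psat1, Psph and Mthfd2 were low, at 0.313 to 2.32 CPM over all 8 mice. Their log2 fold changes were 0.31, 0.20 and 0.20, with intervals of -0.65 to 1.27, -0.42 to 0.81 and -0.65 to 1.05. Of the 3 intervals, only that of Psph lay within 2-fold either way. Of the proline synthesis enzymes, Aldh18a1 had 8, 11, 4 and 8 counts in WT and 4, 9, 15 and 4 counts in N-LKO mice, and Pycr1 had 1, 2, 2 and 6 against 3, 4, 4 and 2 counts. Both overlapped between genotypes, with N-LKO over WT ratios of 1.13 (95% interval 0.669 to 1.92) and 1.30 (0.535 to 3.19).

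Among the amino acid transporters, Slc3a2 alone had an unadjusted p under 0.05. Slc3a2 encodes the heavy chain that carries several amino acid exchangers to the cell surface. It was at 18.5, 18.2, 22.1 and 19.3 CPM in WT and at 23.7, 22.6, 22.4 and 20.6 CPM in N-LKO mice. N-LKO 1, N-LKO 2 and N-LKO 3 were above all WT mice and N-LKO 4 was below WT 3, so that the groups overlapped through those 2 mice. The log2 fold change was 0.20 (SE 0.0881, 95% interval 0.0012 to 0.39, unadjusted p = 0.0488, adjusted p = 0.389, edgeR). Its light chain for large neutral amino acids, Slc7a5, was at 0.750 to 1.49 CPM in WT and 1.13 to 1.73 CPM in N-LKO mice, a log2 fold change of 0.36 with an interval from -0.26 to 0.97. Slc38a2, the sodium-coupled neutral amino acid transporter, was abundant but uneven, at 264, 221, 99.7 and 153 CPM in WT and 216, 171, 92.7 and 165 CPM in N-LKO mice. WT 3 and N-LKO 3 were the lowest of their genotype and WT 1 and N-LKO 1 the highest, and the log2 fold change of -0.19 was 0.03 without WT 1. The arginine transporter Slc7a1 was at 0.50 to 1.58 CPM in WT and 0.567 to 1.72 CPM in N-LKO mice, a log2 fold change of 0.22 with an interval from -0.76 to 1.21. Slc7a11, the cystine transporter, had 3, 0, 1 and 2 counts in WT and 4, 1, 2 and 2 counts in N-LKO mice, which does not allow a statement on its change (ratio 1.64, 95% interval 0.523 to 5.61).

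Every mouse held extreme values of its genotype for some genes, in unequal numbers. Over the 29 tested genes the number of genes in which a mouse had the lowest value of its genotype was 7, 10, 7 and 5 for WT 1 to 4 and 5, 8, 6 and 10 for N-LKO 1 to 4. For the highest value the numbers were 11, 8, 6 and 4 for WT 1 to 4 and 10, 5, 5 and 9 for N-LKO 1 to 4. WT 3 held the lowest WT value of Trib3, Sesn2, Ddit4, Cth and Slc38a2, and WT 1 the highest WT value of Ppp1r15a, Atf4, Sesn2, Asns and Slc38a2. The plot of deviations by mouse shows the same values by role.

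**Figure D4:**
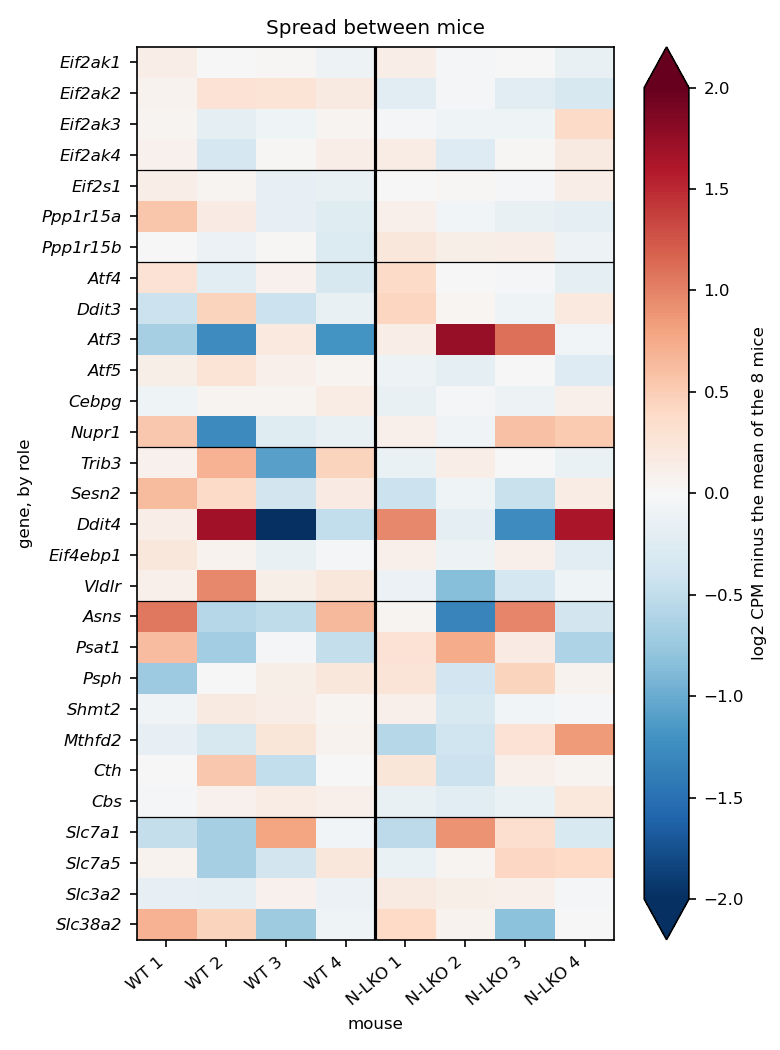
Deviation of log2 CPM from the mean of the 8 mice (colour, red above and blue below the mean) for the 29 tested genes in rows by role and the 8 mice in columns. The strongest colours include Ddit4, Atf3 and Asns and occur in both genotypes for Ddit4 and Asns, while Eif2ak2 and Atf5 are pale but even within the WT and the N-LKO columns.

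Other genes of the pathway were read from 4 lists of 92 genes, of which 84 were tested. One of the 84 passed the edgeR test, Fgf21, and 14 had an unadjusted p under 0.05, of which 12 were higher and 2 lower in N-LKO livers. Over all genes tested the shares were 1.04% and 12.8%, with 976 higher and 838 lower at an unadjusted p under 0.05. The number called and the number past that p over the 4 lists together are near the background. The split into higher and lower is less even than over all genes. Of the 14 genes, 9 are in the list of other reported ATF4 or CHOP targets, of which 28 were tested. Whether that list differs from the background was not tested. Fgf21 encodes a hepatokine that ATF4 is known to induce. It was at 5.02, 4.06, 5.07 and 4.86 CPM in WT and 3.06, 2.38, 2.39 and 2.10 CPM in N-LKO mice, with every N-LKO mouse below every WT mouse. Fgf21 fell by 0.93 on the log2 scale (SE 0.162, 95% interval -1.29 to -0.57, adjusted p = 0.0224, edgeR). The call was kept in 2 of the 8 fits that left out 1 mouse, where the adjusted p ranged from 0.0178 to 0.0785 and the log2 fold change from -1.05 to -0.86, so it was lost without WT 1, WT 3, WT 4, N-LKO 2, N-LKO 3 or N-LKO 4.

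The other members of that list of 28 tested ATF4 or CHOP targets included 8 with an unadjusted p under 0.05, 7 higher and 1 lower in N-LKO livers, where 12.8% of all genes were past that p, and the list's median log2 fold change was 0.04. The 3 with the smallest p were Gpt2, mitochondrial alanine aminotransferase (log2 fold change 0.25, adjusted p = 0.241), Xpot, the tRNA export factor (0.20, 0.245), and Slc6a9, a glycine transporter (0.49, 0.268, all by edgeR). Gpt2 and Xpot did not overlap between genotypes, at 676 to 797 against 798 to 881 CPM and 82.2 to 90.7 against 94.9 to 107 CPM, as was the case for 7.52% of all genes in either direction. Of the 13 tested eIF2 and eIF2B subunits and regulators, none passed the edgeR test. Among them 1 had an unadjusted p under 0.05, against 12.8% of all genes. That gene, Dnajc3, the PKR and PERK inhibitor p58IPK, was at 218 to 244 CPM in WT and 273 to 313 CPM in N-LKO mice. Its log2 fold change was 0.32 (adjusted p = 0.0837, edgeR). Dnajc3 was called by DESeq2.

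All 20 tested cytosolic aminoacyl-tRNA synthetases, many of which ATF4 induces, had an interval within 2-fold of no change, and 19 had one within 1.5-fold. None passed the edgeR test, and limma-voom and DESeq2 called 0. Of the 20, 1 had an unadjusted p under 0.05, against 12.8% of all genes: Wars, the tryptophanyl-tRNA synthetase (log2 fold change 0.34, adjusted p = 0.249, edgeR). The list's median log2 fold change was 0.06. Among 24 tested enzymes of amino acid breakdown and the urea cycle, none passed in edgeR or limma-voom and DESeq2 called 1, Glul. In this list the log2 fold change was above 0 for 21 of the 24, against 7004 of all 14214 genes tested. Its median was 0.11, against a median of -0.0033 over all genes. An unadjusted p under 0.05 was found for 3 of the 24, a share near the 12.8% of all genes. The 3 were Glul, glutamine synthetase (0.47, adjusted p = 0.124), Prodh, proline dehydrogenase (0.53, 0.326), and Tdo2, tryptophan dioxygenase (0.36, 0.360, all by edgeR).

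**Figure D5:**
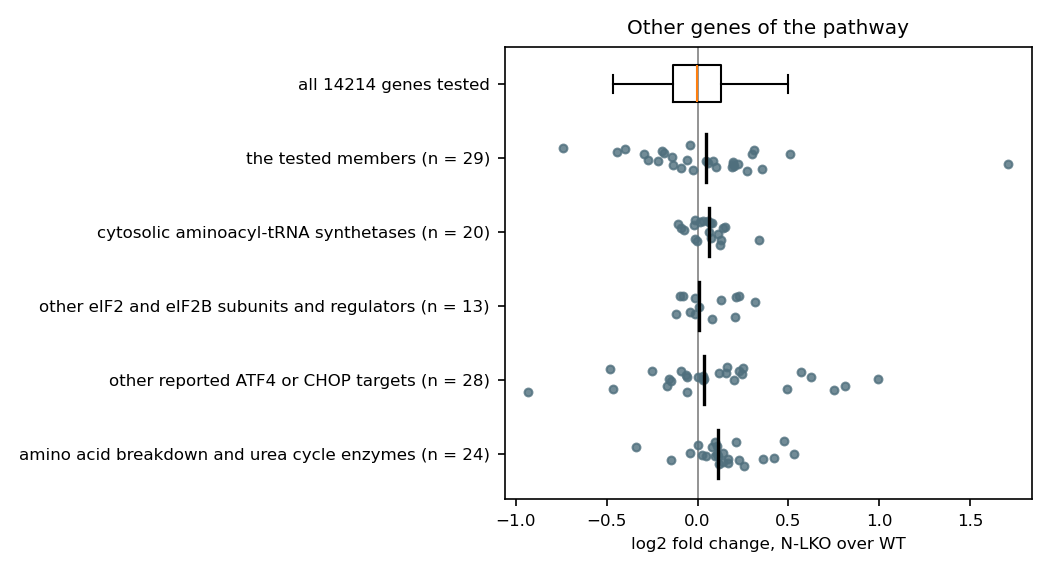
Log2 fold change (N-LKO over WT, x axis) of the 29 tested genes and of the tested genes in 4 further lists (points, vertical bar at the median), with a box for all 14214 genes tested (box from the first to the third quartile, whiskers from percentile 5 to 95). Medians lie between 0.0093 and 0.11, Fgf21 is the point at -0.93 and Atf3 the point at 1.71.

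Genes with and without the ATF4 core in a promoter were set side by side, and whether they differ was not tested. Of 272 tested genes with the core in a promoter, 3 were called in edgeR (1.10%), Fgf21 and Ecm1 lower and Mbnl2 higher in N-LKO livers, and the median log2 fold change was -0.0035. Of 9591 tested genes with a promoter but no core, 94 were called (0.98%), with a median of -0.00069. An unadjusted p under 0.05 was found for 45 of the 272 (16.5%, 26 higher and 19 lower). It was found for 13.1% of the 9591 (680 higher and 575 lower). The 5 tested genes of the set with the core were Asns (-0.29), Atf3 (1.71), Nupr1 (0.51), Trib3 (-0.22) and Vldlr (-0.74). The windows of Asns, Atf3, Trib3 and Vldlr printed above and that of Nupr1, not printed, share the core. The log2 fold changes of these 5 genes had both signs. The 20 tested genes of the set with a promoter but no core had a median log2 fold change of 0.05.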

How the data were processed

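RNA of 8 livers was sequenced after removal of rRNA (Ribo-Zero), with a kit named as TrueSeq Small RNA. The deposited values are expected counts (gene-level estimates of read numbers), and 52.3% of genes had decimals. The methods name TopHat2 and cuffdiff, whereas the submitters' processing notes name STAR, Partek and mm9. Gene positions in the deposited table match GRCm38 (19088 of 19193 matched genes had the GENCODE M21 start), and the counting program was not given in the sources used here. The members of the set and the lists were chosen with earlier results of these data known. Named were all members and, per list, called genes and at most 3 others with the smallest unadjusted p under 0.05. Saa1, Fgb, Ecm1 and Mbnl2 were named after their values were seen.

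Counts were rounded, filtered by filterByExpr (minimum count 10, total 15), scaled by TMM and tested over all 14214 genes with edgeR 4.0.16 in R 4.3.3 (quasi-likelihood, genotype only), called at a Benjamini-Hochberg adjusted p under 0.05. SE is the log2 fold change over the square root of F, and log2 CPM used a prior count of 2. DESeq2 1.42.0 and limma-voom 3.58.1, other scaling, filters and prior counts, replicate blocks and fits without 1 mouse were alternatives. Ratios of summed counts carry 95% exact intervals that cover counting error only. Scripts were tested on simulated data. Libraries of the same group differed by more than sampling noise.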

Additional observations from a re-analysis of the deposited data

Results flagged for a closer look

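Each of 68 groups (the 34 genes in each genotype, 4 mice) was examined for a mouse far from the other 3, by the gap to its neighbour over the range (Dixon's limit at the 95% level). About 3.4 groups would pass by chance (1 in 20), and 2 did. For Eif2ak3, N-LKO 4 was at a log2 CPM of 3.87 (14.5 CPM) with the other N-LKO mice at 10.4 to 10.8 CPM, and the gene's log2 fold change was -0.03 without it. For Vldlr, WT 2 was at a log2 CPM of 2.48 (5.44 CPM) with the other WT mice at 2.94 to 3.20 CPM, and the log2 fold change was -0.49 without it.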

How the results depend on the processing

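With all mice, the count of the 29 genes called was 0 under RLE scaling, library totals, no filter, a filter of at least 10 counts per mouse, limma-voom and both replicate blocks, and 2 with DESeq2. Without single mice it was 0 to 1. The count over the other pathway lists was 1, with 3 in DESeq2 (Dnajc3, Fgf21 and Glul), and 0 to 1 without single mice. The sources do not say whether the replicate numbers pair the mice, and whether same-numbered mice shared a cage or litter is not known. Correlations of same-numbered deviations ran from -0.085 to 0.062 by title and from -0.0092 to 0.17 by library name. With a replicate block the count over the lists was 0 (Fgf21 at an adjusted p of 0.0572, edgeR). With a replicate block by library name it was 2 (Fgf21 and Slc6a9). Nus1 was at a log2 fold change of -1.26 with the replicate block and -1.30 to -1.22 without single mice.

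No setting with all mice turned a direction among the 29 genes. Leaving out single mice turned 13 genes, none past the threshold. Their log2 fold changes ranged from -0.077 to 0.019 for Eif2ak1, -0.027 to 0.15 for Eif2ak3, -0.050 to 0.14 for Eif2ak4, -0.29 to 0.0047 for Ppp1r15a, -0.045 to 0.20 for Atf4, -0.47 to 0.0053 for Trib3, -0.24 to 1.26 for Ddit4, -0.12 to 0.013 for Eif4ebp1, -0.80 to 0.077 for Asns, -0.18 to 0.42 for Mthfd2, -0.19 to 0.16 for Cth, -0.14 to 0.66 for Slc7a1 and -0.40 to 0.030 for Slc38a2. The causes were not tested. Over all genes the count called was 148, 387 with DESeq2 and 98 with a filter of at least 10 counts per mouse. Few counts limit Atf3, Nupr1, Psat1, Psph, Mthfd2, Slc7a1 and Slc7a5 and the 5 genes below the filter.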
